A study of Mus musculus with 18 samples.

Results

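Polyamine metabolism was followed through 10 genes of the mouse in 3 fat depots: Azin2, Azin1, Odc1, Oaz1, Oaz2, Amd1, Srm, Sms, Sat1 and Paox. They were taken by gene symbol, 1 row each, from a table of 54347 rows. The set was chosen by the level of Azin2, which is much lower in brown than in epididymal fat, so the tissue values of Azin2 are given as a description with no test and the question is whether the other 9 genes follow. Polyadenylated RNA was sequenced from interscapular brown (iBAT), inguinal white (iWAT) and epididymal white (eWAT) adipose tissue of 3 mice lacking exon 1 of the long noncoding RNA Gm15551 (ko) and 3 wild type mice (wt). All mice were 12 weeks old, of the C57BL/6N-ΔGm15551 strain, on a chow diet and without cold treatment. The deletion was made in the germline with CRISPR/Cas9, so it is not confined to fat, and by the animal identifiers in the labels a replicate number names the same mouse of a genotype in all 3 depots. The 18 libraries are therefore 6 mice with 3 depots each.

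Polyamines are small, positively charged molecules that bind nucleic acids and are needed for growth and translation. Ornithine decarboxylase (Odc1) makes putrescine, and spermidine synthase (Srm) and spermine synthase (Sms) lengthen it with groups supplied by S-adenosylmethionine decarboxylase (Amd1). Antizymes (Oaz1, Oaz2) bind ornithine decarboxylase and send it to the proteasome, while the antizyme inhibitors (Azin1, Azin2) resemble the enzyme, lack its activity and draw antizyme away from it. Spermidine/spermine acetyltransferase (Sat1) and polyamine oxidase (Paox) return the longer polyamines to putrescine, and futile use of acetyl-CoA by this loop has been studied in fat.

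Antizyme is made only when ribosomes shift frame at the stop codon of a first short reading frame, and polyamines promote that shift. The stretch around this site is shown because Oaz1 and Oaz2 both carry the site. The 60 bases come from transcripts of Oaz1 (GRCm38, chr10:80826656-80829290, plus strand) and Oaz2 (chr9:65668001-65690300, plus strand) in the GENCODE M21 annotation, with the shift site in capitals.
Oaz1: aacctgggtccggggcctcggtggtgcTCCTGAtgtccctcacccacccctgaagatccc
Oaz2: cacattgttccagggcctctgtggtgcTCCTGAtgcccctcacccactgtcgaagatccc
The windows had 49 of 60 bases in common, including all 6 of the site. As printed, they were in 1 of 6 coding transcripts of Oaz1 and 0 of 4 of Oaz2. Without the T of TGA they were in 3 and 2. Over their coding sequences the genes were 68.2% identical. Read counts of a gene do not measure the frame in which it is translated. The inhibitors were about as close to the enzyme as to each other: coding sequences were 64.2% identical between Azin2 and Odc1, 64.1% between Azin1 and Odc1, and 60.6% between Azin2 and Azin1.

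The libraries held 14997901 to 34389586 counts, and the 10 genes had 53 counts (Azin2) to 11114 counts (Oaz1) in a library. Levels are CPM (a gene's count scaled to the library's size) after TMM scaling, which corrects for differences in RNA composition. Counts of Gm15551 were 40 to 316 in the 9 wt libraries and 0 to 4 in the 9 ko libraries, as labelled. Summed brown adipocyte markers were 6260 to 11732 CPM in iBAT, 16.3 to 220.9 in iWAT, and in eWAT 6.63 to 16.2, as the depots are labelled. In 4 libraries, genes of other tissue were high. In eWAT ko replicate 3, the summed epididymis genes reached 5339 CPM, against 0.215 to 39.8 in the other 5 eWAT libraries. In iWAT wt replicate 3 and iWAT ko replicate 2, lymphocyte and lymph node genes reached 969.1 and 388.7 CPM, and in iWAT ko replicate 1 skeletal muscle genes reached 4649 CPM.

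Azin2 (chr4:128930233-128962442, minus strand) had its lowest level in iBAT, an intermediate level in iWAT and its highest level in eWAT. In iBAT it was 4.46, 4.54 and 3.62 CPM in wt and 5.17, 4.36 and 3.41 CPM in ko. In iWAT it was 16.6, 15.8 and 12.6 CPM in wt and 13.1, 12.8 and 14.8 CPM in ko. In eWAT it was 41.4, 37.6 and 42.0 CPM in wt and 33.6, 30.7 and 27.3 CPM in ko. No library of a depot overlapped with another depot, and the order was the same in 6 of 6 mice. The means were 4.26 ± 0.645, 14.3 ± 1.70 and 35.4 ± 5.94 CPM (SD, n = 6 each). The log2 fold change was -3.04 ± 0.13 (SE) for iBAT against eWAT, -1.74 ± 0.12 for iBAT against iWAT and -1.30 ± 0.12 for iWAT against eWAT. In bulk tissue, fewer cells of a type and less RNA per cell cannot be told apart.

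Markers of other cells differed between the depots beside Azin2. Mast cells are known to express Azin2, and their 8 listed markers summed to 20.7 to 42.1 CPM in iBAT, 36.4 to 174.0 in iWAT, and in eWAT 22.7 to 66.0. Kit and Hdc held most of the sum in iBAT, with means of 23.7 and 6.16 CPM, and both had their highest mean there: Kit averaged 19.7 in iWAT and 20.1 in eWAT, and Hdc 2.76 and 3.62. The mast cell proteases, set apart after their values were seen, were lowest in iBAT, as Azin2 was, and highest in iWAT, where Azin2 was intermediate. The median of Cma1 was 0.220 CPM in iBAT, 7.27 in iWAT and 3.19 in eWAT, that of Tpsb2 was 0.442, 12.2 and 4.33, that of Mcpt4 0.564, 13.5 and 3.61, and that of Cpa3 0.506, 6.16 and 1.60. The 6 listed mesothelium markers summed to 4.02 to 6.89 CPM in iBAT, 3.12 to 54.8 in iWAT, and in eWAT 74.3 to 136.2. Progenitor and fibroblast genes summed to 220.8 to 349.4 CPM in iBAT and, with no overlap, to 611.1 to 1314 in eWAT and 1413 to 4581 in iWAT, and macrophage genes to 64.5 to 160.9, 159.6 to 584.4 and 280.8 to 1655. The part of these cells in the levels of Azin2 and the other genes was not tested. Azin2 overlaps the antisense gene Gm15904, whose reads cannot be set apart if counting ignored strand.

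**Figure D1:**
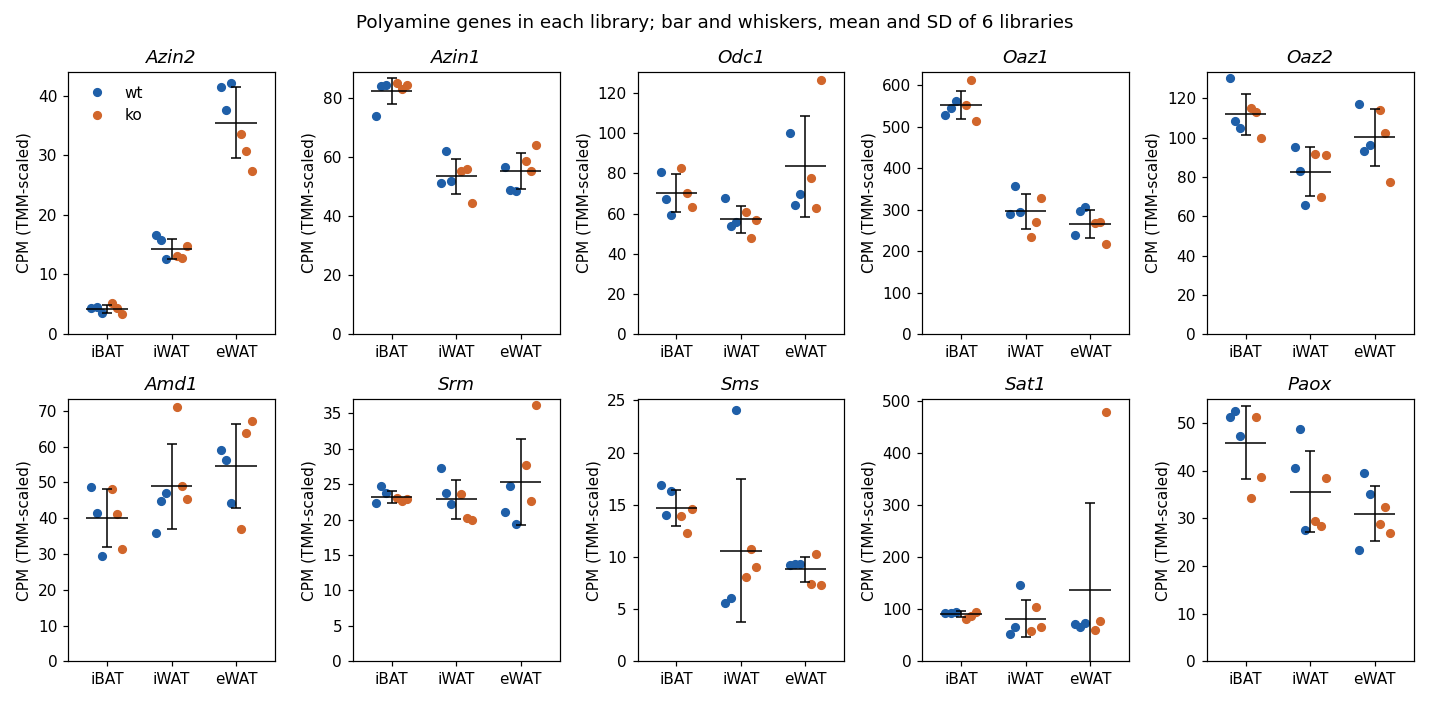
Level of each of the 10 genes (CPM, TMM-scaled, linear axis from 0) in the 18 libraries by depot, wt in blue and ko in orange; lines and whiskers are the mean and SD of 6 libraries. Azin2 falls into 3 separate ranges, 3.41 to 5.17, 12.6 to 16.6 and 27.3 to 42.0 CPM, while Azin1 and Oaz1 are higher in iBAT than in either white depot under this scaling and single libraries stand far from the rest for Sat1 in eWAT and Sms in iWAT.

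Under TMM, the other 9 genes did not take the pattern of Azin2 as a group. Against eWAT, 5 of 9 passed the test in iBAT, 4 higher (Oaz1, Azin1, Sms, Paox) and 1 lower (Amd1). That is 55.6%, beside 54.6% of the 18728 genes tested, with 24.4% of all genes higher and 30.2% lower in iBAT. Against iWAT, 4 of 9 passed, all higher in iBAT (Oaz1, Azin1, Oaz2, Paox), which is 44.4% beside 54.3% of all genes (24% higher and 30.3% lower). Between the white depots, only Odc1 of the 9 passed, lower in iWAT, beside 10.2% of all genes (5.7% higher and 4.5% lower). The number of genes called was thus near the background in the comparisons with iBAT. The median log2 fold change of the 9 was 0.16 against eWAT and 0.37 against iWAT, where the median over all genes was -0.17 and -0.14. Adjusted p-values in these comparisons are from edgeR's quasi-likelihood test over all genes.

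Directions in iBAT depended on the scaling. The TMM factor ran from 0.617 to 0.744 over the iBAT libraries, and from 1.06 to 1.44 over the white ones, and 22.9% to 26.99% of iBAT counts came from the mitochondrial genome against 3.77% to 9.64% in white fat. Scaled to library totals alone, the median over all genes moved to -1.04 against eWAT and -0.95 against iWAT, and calls over all genes went from 4565 higher and 5655 lower to 1579 higher and 13159 lower against eWAT, and from 4490 higher and 5674 lower to 1438 higher and 12804 lower against iWAT. Of the 9 genes, 7 were then called lower and 0 higher against eWAT, and 5 lower and 0 higher against iWAT. Leaving out the mitochondrial rows before TMM kept the main counts of 5 and 4. The higher levels in iBAT below are therefore relative to the TMM reference.

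Azin1 (chr15:38487427-38519266, minus strand), the more widely expressed antizyme inhibitor, was higher in iBAT under TMM, opposite to Azin2. In iBAT it was 73.8, 84.0 and 84.3 CPM in wt and 85.1, 83.0 and 84.6 CPM in ko. In iWAT it ranged from 44.4 to 62.0 CPM with a median of 53.7, and in eWAT from 48.4 to 64.0 CPM with a median of 55.9. All 6 iBAT libraries were above all 12 white libraries. On the log2 scale the difference was 0.58 ± 0.09 (SE, adjusted p = 2.41e-05) against eWAT and 0.62 ± 0.09 (adjusted p = 1.34e-05) against iWAT, higher in 6 of 6 mice. With library totals alone it turned to -0.30 (adjusted p = 0.0287), a call in the direction of Azin2, and -0.18 (adjusted p = 0.166), both above the median gene. The white depots did not differ detectably (-0.04 ± 0.09, adjusted p = 0.795). Within a library, where scaling cancels, there were 19.8 ± 3.49 Azin1 counts for each Azin2 count in iBAT, 3.79 ± 0.599 in iWAT, and in eWAT 1.62 ± 0.439 (SD, n = 6).

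Oaz1, the main antizyme, had the largest difference of the 9 genes in iBAT under TMM with all libraries, and not with library totals alone. It was 528.8, 544.9 and 562.0 CPM in iBAT of wt and 551.3, 612.5 and 513.7 CPM in ko. The iWAT libraries ranged from 234.8 to 356.2 CPM with a median of 292.3, and the eWAT libraries from 216.2 to 307.5 CPM with a median of 268.3. The ranges of brown and white fat did not overlap. The log2 fold change was 1.06 ± 0.11 (adjusted p = 4.27e-07) against eWAT and 0.90 ± 0.11 (adjusted p = 3.17e-06) against iWAT, in 6 of 6 mice. It stayed above 0 with library totals alone, at 0.19 (adjusted p = 0.0993) and 0.10 (adjusted p = 0.416), without passing the test. Oaz1 was also the highest of the 10 genes per length in each depot. Per kb of the transcript with the longest coding sequence, it had 528.9 ± 32.7 CPM in iBAT, 283.3 ± 40.7 in iWAT, and in eWAT 255.0 ± 32.7.

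Oaz2, the second antizyme, was 100.1 to 130.3 CPM in iBAT, 65.6 to 95.4 in iWAT, and in eWAT 77.4 to 117.1. The iBAT range lay above that of iWAT and overlapped that of eWAT. On the log2 scale the difference was 0.44 ± 0.12 (adjusted p = 0.0047) against iWAT and 0.16 ± 0.12 (adjusted p = 0.254) against eWAT. Scaled to library totals alone, Oaz2 was called lower in iBAT against both, at -0.36 (adjusted p = 0.00213) and -0.71 (adjusted p = 3.86e-06). Of the 9 genes, 3 had no overlap between iBAT and eWAT libraries (Azin1, Oaz1, Sms), beside 37.3% of all genes. Against iWAT these were also 3 (Azin1, Oaz1, Oaz2), beside 34.6%, and between the white depots 0, beside 4.62%.

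Odc1 (chr12:17544794-17551505, plus strand), the enzyme that antizyme and its inhibitors act on, did not pass the test between brown and white fat under TMM with all libraries. It was 59.1 to 82.9 CPM in iBAT, 48.0 to 67.6 in iWAT, and in eWAT 62.6 to 126.6, with medians of 68.6, 56.2 and 73.8. The depots overlapped. The log2 fold change was -0.24 ± 0.16 (adjusted p = 0.206) for iBAT against eWAT and 0.30 ± 0.16 (adjusted p = 0.122) against iWAT, where it was higher in 6 of 6 mice. Against iWAT it passed with only the libraries of both depots (0.30, adjusted p = 0.0351) and without eWAT ko replicate 3 (0.31, adjusted p = 0.0452). With library totals alone it was called lower in iBAT against both, at -1.15 (adjusted p = 3.61e-05) against eWAT and -0.51 (adjusted p = 0.0189) against iWAT. It was -0.54 ± 0.16 (adjusted p = 0.0397) for iWAT against eWAT. The highest Odc1 value was that of eWAT ko replicate 3, which carries the epididymis genes, and without this library the difference of the white depots was -0.39 (adjusted p = 0.0697). Leaving out any of the 6 mice also ended this call, with adjusted p between 0.0708 and 0.105.

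The balance of these transcripts was compared as ratios of counts in the same library, which no scaling changes. There were 7.96 ± 1.16 Oaz1 counts per Odc1 count in iBAT, 5.25 ± 1.02 in iWAT, and in eWAT 3.48 ± 1.20 (SD, n = 6). The ratio was higher in iBAT than in eWAT by 1.27 ± 0.53 on the log2 scale (SD of 6 mice) and than in iWAT by 0.61 ± 0.20, in 6 of 6 mice each. There were 1.19 ± 0.192 Azin1 counts per Odc1 count in iBAT, 0.950 ± 0.176 in iWAT, and in eWAT 0.694 ± 0.139, again ordered the same way in 6 of 6 mice. In the exact two-sided sign-flip permutation test over 6 mice, each of these 6 comparisons of depots gave p = 0.03125, the smallest this design allows, and 0.0402 after adjustment over 9 tests. The Oaz1 to Azin1 ratio in eWAT, iWAT and iBAT averaged 4.91 ± 1.13, 5.59 ± 1.06 and 6.71 ± 0.485. It was higher in iBAT than in eWAT (0.48 ± 0.33 on the log2 scale, exact p = 0.03125, adjusted 0.0402), and in 5 of 6 mice than in iWAT (exact p = 0.125, adjusted 0.141). Between the white depots it was higher in iWAT in 2 mice and lower in 4 (exact p = 0.5). In eWAT the lowest value of each ratio was that of eWAT ko replicate 3, which carries the epididymis genes. It was 1.71 for Oaz1 to Odc1, 0.506 for Azin1 to Odc1 and 3.38 for Oaz1 to Azin1. The ratios were not compared without this library. They were chosen after the levels had been seen.

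Among the synthases, Srm (chr4:148591503-148594993, plus strand) did not pass the test in iBAT under TMM. It was 22.4 to 24.7 CPM in iBAT, 19.9 to 27.3 in iWAT, and in eWAT 19.4 to 36.1, with the top value in eWAT ko replicate 3. Its log2 fold change was -0.12 ± 0.13 (adjusted p = 0.458) against eWAT and 0.02 ± 0.13 (adjusted p = 0.898) against iWAT. Scaled to library totals alone, it was called lower in iBAT, at -0.999 (adjusted p = 2.63e-05) and -0.78 (adjusted p = 0.000287). Sms (chrX:157443855-157492287, minus strand) was 12.3 to 16.9 CPM in iBAT and 7.33 to 10.3 in eWAT, with no overlap. On the log2 scale the difference was 0.73 ± 0.27 (adjusted p = 0.0312), which lost its call without eWAT ko replicate 3 (0.70, adjusted p = 0.0532) and turned to -0.14 with library totals alone. The call also went with no filter on low counts (adjusted p = 0.0572), with at least 10 counts required in every library (adjusted p = 0.056), and when the mice ko replicate 1, ko replicate 3 or wt replicate 1 were left out.

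In iWAT, Sms was 5.62, 6.05 and 24.1 CPM in wt and 8.12, 10.7 and 9.06 CPM in ko. The value of 24.1 CPM came from iWAT wt replicate 3, the library with the most lymphocyte and lymph node RNA. The difference of iBAT from iWAT was 0.47 ± 0.27 (adjusted p = 0.149) with this library and 0.90 (adjusted p = 0.000427) without it, and turned to -0.41 with library totals alone. Without the 4 libraries that carry other tissue, it was 1.08 (adjusted p = 0.00013) against iWAT and 0.68 (adjusted p = 0.000845) against eWAT.

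Amd1 (chr10:40287458-40302186, minus strand) was the only one of the 9 called lower in iBAT under TMM. It was 29.3 to 48.7 CPM in iBAT, 35.8 to 71.1 in iWAT, and in eWAT 36.9 to 67.0, with overlap throughout. The log2 fold change was -0.45 ± 0.18 (adjusted p = 0.0398) against eWAT and -0.28 ± 0.18 (adjusted p = 0.19) against iWAT. With library totals alone it was called lower against both, at -1.35 (adjusted p = 6.08e-06) and -1.10 (adjusted p = 5.3e-05). With each mouse as a block, the first became -0.46 (adjusted p = 0.0512), and without eWAT ko replicate 3 it was -0.40 (adjusted p = 0.0815). It also failed with DESeq2 size factors (adjusted p = 0.0523), with only the libraries of both depots (adjusted p = 0.0511), without the 4 libraries that carry other tissue (adjusted p = 0.0606), and when the mice ko replicate 2, ko replicate 3, wt replicate 2 or wt replicate 3 were left out. The coding sequences of Amd1 and Amd2 were 99.9% identical, 1001 of 1002 bases, so reads of these genes cannot be divided with certainty.

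Under TMM with all libraries, neither Paox nor Sat1, the catabolic genes among the 10, was called lower in iBAT. Smox, a catabolic gene outside the 10, was called lower there against both white depots and is given below. Paox (chr7:140115799-140137224, plus strand) was 34.3 to 52.6 CPM in iBAT, 27.7 to 48.8 in iWAT, and in eWAT 23.3 to 39.4. It was higher in iBAT in 6 of 6 mice, by 0.56 ± 0.15 (adjusted p = 0.00449) against eWAT and 0.37 ± 0.15 (adjusted p = 0.0454) against iWAT, and with library totals alone it was called lower, at -0.30 (adjusted p = 0.0419) and -0.42 (adjusted p = 0.00727). The call against iWAT went without the 4 libraries that carry other tissue (0.13, adjusted p = 0.521), without iWAT wt replicate 3 (0.28, adjusted p = 0.109), with no filter on low counts (adjusted p = 0.134), with at least 10 counts required in every library (adjusted p = 0.101) and without the mice ko replicate 1, ko replicate 2, wt replicate 1 or wt replicate 3. Paox overlaps Echs1 on the other strand.

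Sat1 (chrX:155213132-155216449, minus strand) turned on single libraries. In eWAT it was 71.0, 66.4 and 74.4 CPM in wt and 60.9, 76.9 and 478.8 CPM in ko, and the value of 478.8 was that of eWAT ko replicate 3. In iWAT, the libraries with lymphocyte genes, wt replicate 3 and ko replicate 2, had 146.2 and 104.0 CPM against 53.3 to 67.1 in the other 4. These 2 libraries also had the highest macrophage sums of iWAT, 1655 and 1586 CPM against 280.8 to 657.9, and the highest mast cell sums, 174.0 and 120.9 CPM against 36.4 to 76.9; the part of these cells in Sat1 and Sms was not tested. In iBAT it was 81.8 to 95.8 CPM. On the log2 scale the difference was -0.50 ± 0.47 (adjusted p = 0.379) for iBAT against eWAT and 0.13 ± 0.45 (adjusted p = 0.827) against iWAT. Without the 4 libraries that carry other tissue it was 0.37 (adjusted p = 0.00156) and 0.55 (adjusted p = 0.000445). With library totals alone it was -1.45 (adjusted p = 0.0213) and -0.74 (adjusted p = 0.199).

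**Figure D2:**
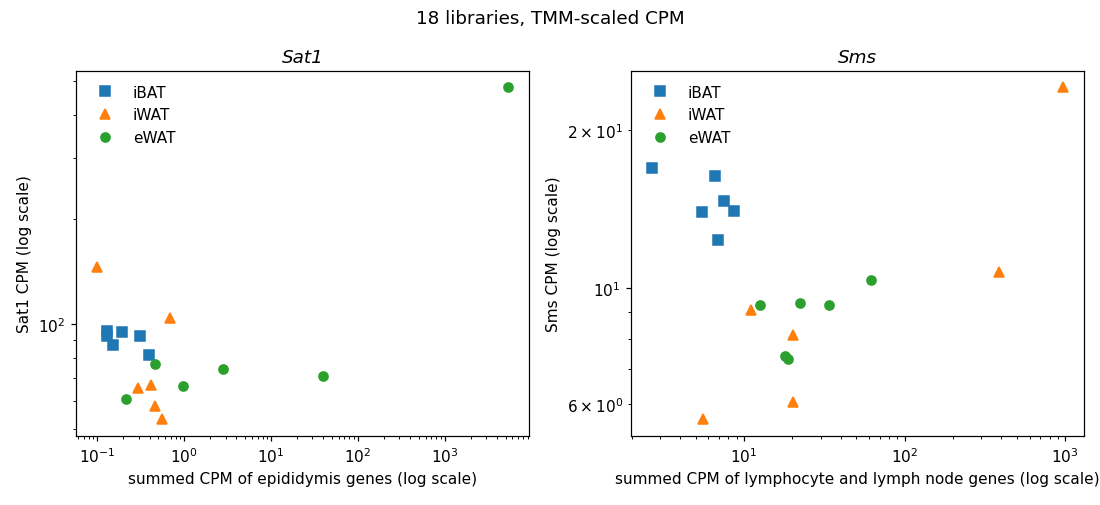
Sat1 against the summed epididymis genes and Sms against the summed lymphocyte and lymph node genes, CPM on log axes, 1 point per library. The eWAT library at 5339 CPM of epididymis genes has 478.8 CPM of Sat1, and the iWAT library at 969.1 CPM of lymphocyte genes has 24.1 CPM of Sms.

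**Figure D3:**
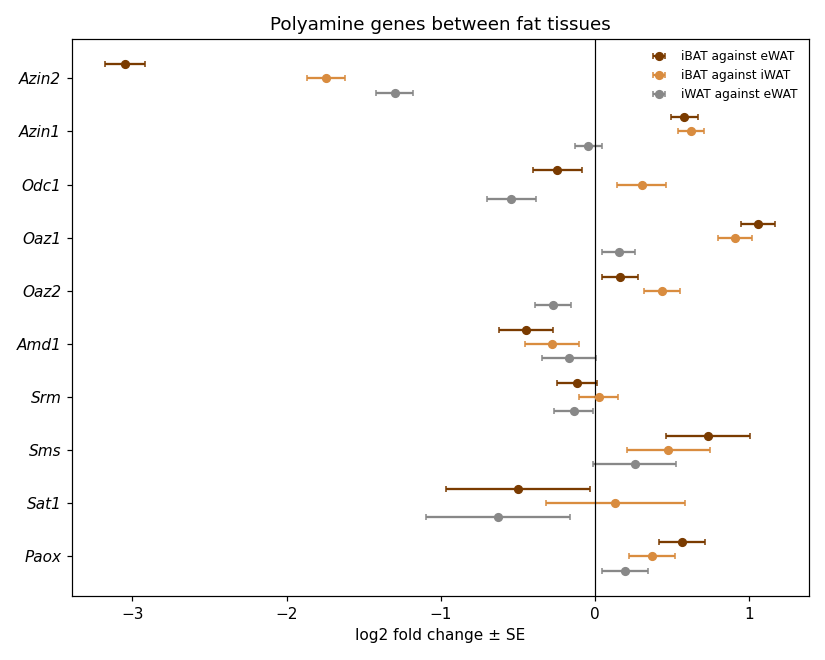
Fitted log2 fold change ± SE of the 10 genes in the 3 depot comparisons under TMM scaling. Azin2 lies at -3.04 and -1.74 in iBAT, while Azin1 and Oaz1 lie above 0 against both white depots; with library totals alone Azin1 turns to -0.30 and -0.18.

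Beyond the 10 genes, 33 of 40 listed genes of the wider pathway could be tested. In iBAT against eWAT 18 passed, 7 higher and 11 lower, and against iWAT 18 passed, 8 higher and 10 lower; both are 54.5% of those tested, beside the 54.6% and 54.3% of all genes. With each mouse as a block these were 22 and 17 of 33, and 10430 and 10414 of the 18728 genes. Between the white depots 4 passed, 1 higher and 3 lower in iWAT, 12.1% beside 10.2% of all genes. With library totals alone, the split became 1 higher and 30 lower against eWAT, and 1 higher and 23 lower against iWAT, where most of all genes were also called lower.

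Of 8 tested genes of ornithine supply, 5 were called lower and 1 higher in iBAT against each white depot, 75.0% in all, beside 54.6% and 54.3% of all genes. Oat, ornithine aminotransferase, was 59.2 to 76.3 CPM in iBAT, 99.1 to 122.8 in iWAT, and in eWAT 132.6 to 160.6, with no overlap. Its log2 fold change was -1.13 ± 0.09 (adjusted p = 1.19e-08) against eWAT and -0.73 ± 0.08 (adjusted p = 2.01e-06) against iWAT. Aldh18a1, which makes the precursor of proline and ornithine from glutamate, was 2.52 to 4.15 CPM in iBAT, 9.98 to 21.7 in iWAT, and in eWAT 8.30 to 11.7. The arginine transporter Slc7a1 fell by 1.81 ± 0.39 (adjusted p = 0.00091) against eWAT and Slc7a2 by 1.13 ± 0.34 (adjusted p = 0.00958), on the log2 scale. The gene called higher was Slc25a15, the mitochondrial ornithine carrier, by 0.50 ± 0.17 (adjusted p = 0.0216) and 1.11 ± 0.17 (adjusted p = 4.63e-05), the first of which turned to -0.38 with library totals alone.

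Of 10 tested genes of S-adenosylmethionine supply and methylthioadenosine salvage, 3 were higher and 2 lower in iBAT against eWAT, and 4 higher and 2 lower against iWAT, so 5 and 6 of 10 were called, beside 54.6% and 54.3% of all genes. Nnmt, which spends S-adenosylmethionine on nicotinamide, was 18.1 to 29.2 CPM in iBAT, 58.9 to 154.6 in iWAT, and in eWAT 76.6 to 177.1. Its log2 fold change was -2.75 ± 0.24 (adjusted p = 4.95e-08) and -2.27 ± 0.23 (adjusted p = 5.06e-07). Mat2b, the regulatory subunit of methionine adenosyltransferase, was higher by 0.53 ± 0.10 (adjusted p = 0.000204) and 0.68 ± 0.10 (adjusted p = 2.4e-05), turning to -0.33 and -0.14 with library totals alone.

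In the hypusine pathway, which uses spermidine to modify the translation factor eIF5A, 2 of 4 genes were higher in iBAT against each white depot and 0 lower, beside 24.4% and 24% of all genes called higher. Eif5a was 423.4 to 480.8 CPM in iBAT, 275.7 to 386.1 in iWAT, and in eWAT 264.3 to 342.4, a difference of 0.53 ± 0.10 (adjusted p = 0.000236) and 0.54 ± 0.10 (adjusted p = 0.000224) that turned to -0.33 and -0.26 with library totals alone. Dohh, the hydroxylase of the last step, was higher by 0.40 ± 0.09 (adjusted p = 0.00199) and 0.79 ± 0.10 (adjusted p = 3.43e-06), turning to -0.48 and -0.023 with library totals alone. Of the 7 transport genes tested, 1 was higher and 2 lower in each comparison (42.9% called, beside 54.6% and 54.3% of all genes), with Slc22a2, an organic cation transporter, at 1.23 to 4.02 CPM in iBAT and 0.0494 to 1.07 in eWAT. Of the 4 other enzymes and antizyme tested, 2 were lower against eWAT (Smox, Amd2) and 1 against iWAT (Smox), with 0 higher, beside 30.2% and 30.3% of all genes lower. Amd2 had only 0 to 9 counts in the iBAT libraries and 10 to 59 in eWAT, and its reads cannot be divided from those of Amd1 with certainty. Smox, spermine oxidase, was lower in iBAT, with a log2 fold change of -0.53 ± 0.18 (adjusted p = 0.0226) against eWAT and -0.46 ± 0.18 (adjusted p = 0.0437) against iWAT.

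**Figure D4:**
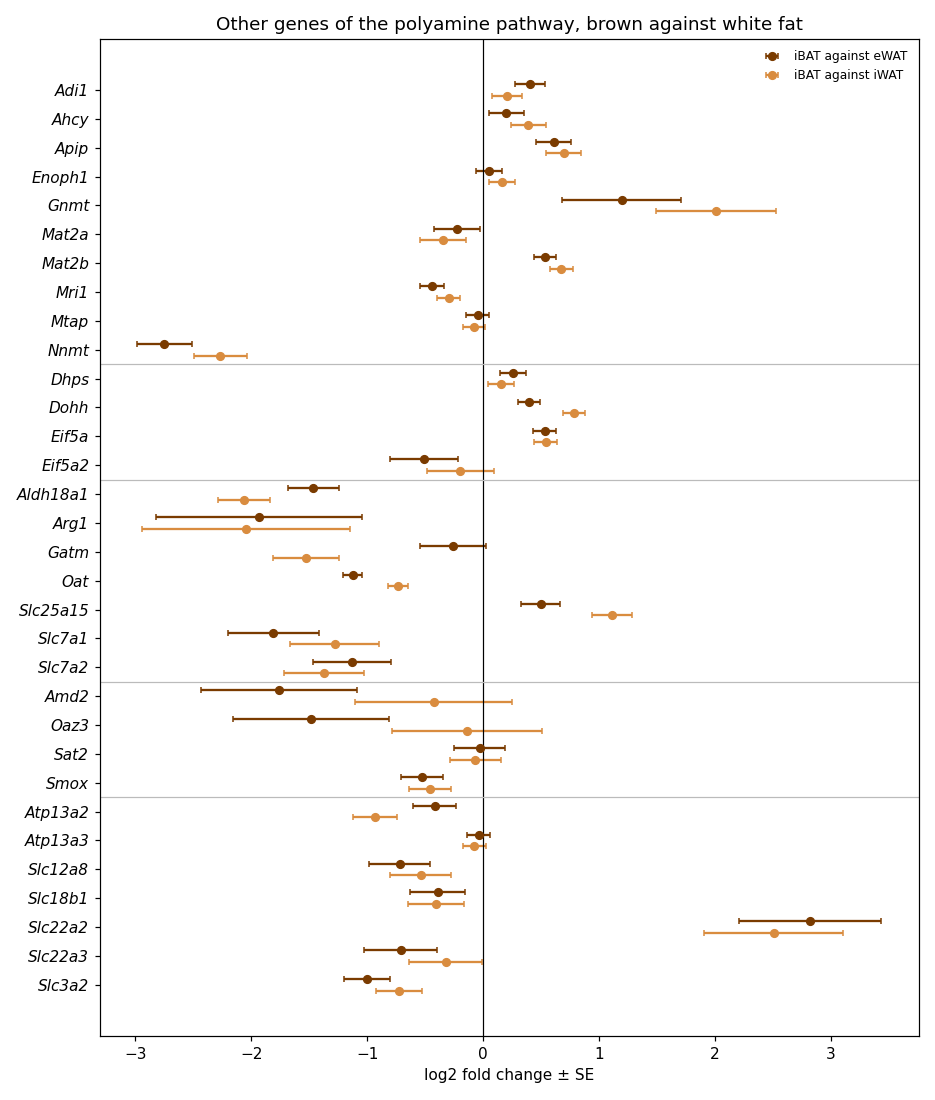
Fitted log2 fold change ± SE of 32 of the 33 tested pathway genes in iBAT against eWAT and iWAT under TMM scaling, grouped by list (lines). Nnmt, Oat and Aldh18a1 lie well below 0 and Slc22a2 above, while Mat2b, Eif5a and Dohh lie slightly above 0 and fall below it with library totals alone.

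Loss of Gm15551 changed none of the 10 genes detectably. With edgeR, 0 of 10 passed in ko against wt across depots, where 0.00534% of all genes did (1 gene, Gm15551), and 0 of 10 in iBAT (0% of all genes), iWAT (0%) or eWAT (0.00534%). Gm15551 itself did not pass within iBAT (log2 fold change -9.16, adjusted p = 0.191) or iWAT (-7.58, adjusted p = 0.0551). The tests within a depot can thus miss the loss of a gene with few counts. A lack of calls there does not show unchanged levels. The test of whether the genotype effect differed between depots also called 0 of 10 and 0% of all genes. Over all genes, 411 had an unadjusted p under 0.05 across depots, 238 in iBAT, 415 in iWAT, 814 in eWAT and 264 in the interaction, and DESeq2 called 4, 13, 4, 13 and 0.

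Of the 10 genes, Azin2, Sat1 and Srm had an unadjusted p under 0.05 for genotype in eWAT. Azin2 was 27.3 to 33.6 CPM in ko and 37.6 to 42.0 CPM in wt, a log2 fold change of -0.40 ± 0.16, with an unadjusted p of 0.0237 and an adjusted p of 1.0 in edgeR. Without eWAT ko replicate 3 this was -0.33, with an unadjusted p of 0.0804. In iBAT and iWAT the difference of Azin2 was 0.03 ± 0.17 and -0.15 ± 0.16. Sat1 differed by 1.54 ± 0.59 in eWAT and by -0.04 without eWAT ko replicate 3, and Srm by 0.41 ± 0.16 and by 0.21 without it, none with an adjusted p under 1.0 in edgeR. In iWAT, Amd1 differed by 0.37 ± 0.25, and Sms by -0.36 ± 0.41 and by 0.67 without iWAT wt replicate 3.

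**Figure D5:**
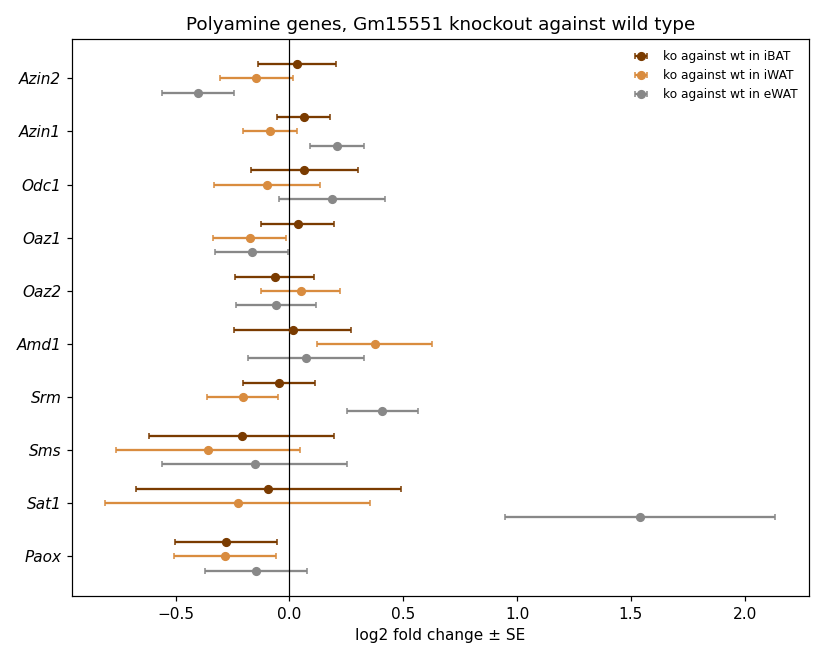
Fitted log2 fold change ± SE of ko against wt for the 10 genes in each depot. Most points lie close to 0, and Sat1 in eWAT, at 1.54, falls to -0.04 without eWAT ko replicate 3.

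The genes Cachd1, Rhbdl1, Gm19531 and Eepd1 were among the 5 whose pattern was most like that of Azin2. Pearson's r of log2 CPM over the 18 libraries was 0.976, 0.968, 0.968 and 0.967, and these libraries share 6 mice and 3 depots. With the depot means removed, r fell to between 0.149 and 0.354. Of the other 9 genes, under TMM Amd1 was nearest to Azin2 (r = 0.517) and Oaz1 and Azin1 farthest (r = -0.869 and -0.814). The r with library totals alone, where Azin1 turned to -0.30 and -0.18 in iBAT, was not computed. With the depot means removed, the order of r changed, with Oaz2 nearest (r = 0.583) and Sat1 farthest (r = -0.592). Between them were Oaz1 at 0.484, Amd1 at -0.039 and Azin1 at -0.369. Sat1 was 478.8 CPM in eWAT ko replicate 3, which had the lowest Azin2 of eWAT (27.3 CPM). The r without this library was not computed, and differences between genotypes stay in these values.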

How the data were processed

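Per the labels and the methods, frozen adipose tissue was lysed and poly(A) RNA made into paired-end libraries. Reads were filtered with cutadapt and quantified with Salmon on a GENCODE transcriptome of GRCm38. The authors deposited estimated counts per gene as whole numbers. The sources used here do not say which of the 2 transcriptomes named was used, whether strand was taken into account, or how transcripts were summed to genes. Estimated counts divide reads between similar transcripts, which matters for Amd1 and its copies. Column totals ranged from 14997901 to 34389586.

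From these, edgeR 4.0.16 (R 4.3.3) was run with TMM scaling, filterByExpr by group (18728 genes), the quasi-likelihood F-test and Benjamini-Hochberg adjustment over all genes at 0.05. Depot comparisons and the genotype effect across depots used depot plus genotype; ko against wt within a depot used 1 mean per group. The SE is the absolute log2 fold change over the root of F. DESeq2 1.42.0 was an alternative. Genes were named as members, listed pathway genes, Gm15551, or 1 of the 5 most like Azin2 by Pearson's r (prior count 2). Gm15904 and Echs1 are named for their overlap with a member, and single mast cell markers after their values were seen. A listed pathway gene and 1 of those 5 are counted and not reported here by name. Members and lists were chosen with earlier results of these data known. Of 12 marker lists, common adipocyte, endothelium, testis and nerve are given in the closing section and the others beside the results. Positions are from GENCODE M21 (GRCm38). The mouse pairs the depots by the labels; deviations of the same mouse correlated at -0.165 to 0.326 over 18 pairs. Within a depot the mice of a group were separate animals. The edgeR code was tested on simulated data; it missed some strongly changed genes of high dispersion, and the criterion it met was set after the first had failed.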

Additional observations from a re-analysis of the deposited data

Results flagged for a closer look

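Among 30 sets of 6 libraries (10 genes in 3 depots), 4 held a library far from the other 5 by Dixon's test at 0.625; chance flags about 1 in 20, or 1.5 of 30. Sat1 in eWAT was 478.8 CPM in ko replicate 3, next to 76.9. Sms in iWAT was 24.11 CPM in wt replicate 3, next to 10.7. Amd1 in iWAT was 71.15 CPM in ko replicate 1, the library with skeletal muscle genes, next to 49.0. Azin1 in iBAT was 73.78 CPM in wt replicate 1, below the next value of 83.0.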

How the results depend on the processing

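Azin1 and Oaz1 kept their calls in iBAT against both white depots whichever mouse was left out. Of the 9 genes tested between depots, the number called in iBAT against eWAT (5) fell to 2 in wild type libraries only. It was 3 in knockout libraries only and 3 without eWAT ko replicate 3, and lay between 3 and 4 with 1 mouse left out. Against iWAT (4) it fell to 2 in knockout libraries only and to 3 in wild type libraries only. It also fell to 3 with no filter on low counts and with at least 10 counts required in every library. Without the mice ko replicate 1, ko replicate 2 or wt replicate 1 it was 3 as well. It was 5 with only the libraries of both depots, without the 4 libraries that carry other tissue, without eWAT ko replicate 3 and with library totals alone. Between the white depots (1) it was 2 with library totals alone and 0 with no filter on low counts, with only the libraries of both depots, in wild type or knockout libraries only, without the 4 libraries that carry other tissue, without eWAT ko replicate 3 or iWAT wt replicate 3, and without any 1 mouse (0 to 0); with edgeR 2 of the 9 had an unadjusted p under 0.05 there, and DESeq2 called Odc1. Of the pathway genes, those called in iBAT against eWAT (18) were 10 in wild type libraries, 9 in knockout libraries and 31 with library totals alone, and between 12 and 19 with 1 mouse left out; between the white depots (4) they were 2 with the libraries of both depots only, 0 in wild type or knockout libraries only, and between 1 and 4 with 1 mouse left out. Fits on 1 genotype hold 3 libraries a depot; Amd1 against eWAT and Paox against both white depots lost their calls in either genotype alone, Sms against eWAT in wild type and Oaz2 against iWAT in knockout libraries.

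With library totals alone, an alternative chosen after seeing the data, signs turned in iBAT against eWAT for Azin1 (-0.30), Oaz2 (-0.71), Sms (-0.14), Paox (-0.30), Slc25a15 (-0.38), Mat2b (-0.33), Apip (-0.25), Enoph1 (-0.83), Adi1 (-0.47), Ahcy (-0.68), Dhps (-0.62), Dohh (-0.48) and Eif5a (-0.33). Against iWAT they turned for Azin1 (-0.18), Odc1 (-0.51), Oaz2 (-0.36), Srm (-0.78), Sms (-0.41), Sat1 (-0.74), Paox (-0.42), Mat2b (-0.14), Apip (-0.094), Enoph1 (-0.64), Adi1 (-0.57), Ahcy (-0.42), Dhps (-0.67), Dohh (-0.023) and Eif5a (-0.26). Sat1 turned to 0.37 in iBAT against eWAT without the 4 libraries that carry other tissue. The cause of these changes was not tested.

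With each mouse as a replicate block, 4 of the 9 genes were called in iBAT against eWAT, 4 against iWAT and 1 between the white depots; Amd1 against eWAT was the one member call it changed, and of the pathway genes 22, 17 and 4 were called. Numbers do not pair ko with wt mice (same-number deviations correlated at -0.465 to 0.551 over 9 pairs), and a replicate block by number called 0 of 10 genes for genotype. DESeq2 gave no p for Sat1. For genotype, no alternative called any of the 10 genes. The members had 53 counts or more in every library, and each genotype had 3 mice.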

Other observations

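The remaining marker lists are given as ranges of summed CPM in iBAT, iWAT and eWAT. Common adipocyte genes summed to 14576 to 18650, 14900 to 34856 and 13378 to 32860. Endothelium genes summed to 736.4 to 865.2, 475.4 to 735.9 and 401.3 to 855.9, testis and sperm genes to 0.940 to 2.72, 1.06 to 2.53 and 1.89 to 128.2, and nerve genes to 0.225 to 0.626, 0.657 to 2.51 and 0.485 to 1.29. The highest testis and sperm sum was that of eWAT ko replicate 3, where Oaz3, the antizyme of the testis, had 269 counts against 17 to 33 in the other eWAT libraries.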
